A study of Mus musculus with 182 samples.

Results

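Ly6d, Vpreb3, Crip1, Map3k1 and Sdc4 are 5 of the 17034 genes measured in 182 single germinal centre B cells, and they were taken by symbol because earlier results of the same cells had shown them to vary strongly. They were chosen by measured values, namely the variance of log2(value + 1) over the trend that variance follows with the mean. By that measure Crip1 stood at place 4, Vpreb3 at 9, Ly6d at 25, Sdc4 at 136 and Map3k1 at 942 of 5401 genes. Map3k1 was therefore not among the most variable genes, and it is kept here because it was named with the others. These places describe the choice and support nothing else.

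The cells came from spleens of C57BL/6 mice on day 13 after an injection of 100 µg NP(23)-KLH, a hapten on a carrier protein, with 50% alum and 1 µg LPS. They form 1 group. The design text gives C57BL/6J as the strain, reports that magnetic columns removed cells carrying CD3, CD4, CD8, CD11c or IgD, and gives a sort on B220, Fas and high GL7, with NP listed as a stain. The sample labels add NP binding to the sorted phenotype. Cells were captured on a Fluidigm C1 chip and their cDNA was made with SMARTer chemistry, with 1 library for each cell. No label ties a cell to an animal, so all cells count as 1 biological sample and no test between cells was made.

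The germinal centre is the site where B cells mutate their antibody genes, divide and are selected for antigen binding, and where many of them exchange the IgM heavy chain for a switched one. Ly6d encodes a surface protein anchored by a lipid, known as a mark of commitment to the B lineage in early progenitors. Vpreb3 encodes a protein of the endoplasmic reticulum that binds immunoglobulin chains in pre-B cells. Crip1 encodes a small LIM domain protein, Map3k1 a kinase at the head of the JNK cascade that is also used downstream of CD40, and Sdc4 a cell surface proteoglycan with heparan sulfate chains.

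The values are a normalized signal that is not on a log scale, and the reads behind each value are unknown. The columns fell into 2 sets, cells 1 to 96 and cells 97 to 182. They were recognised because 0% of non-zero values were exactly equal between cells of different sets. Between cells of the same set at least 55.5% were equal. They are called set 1 (96 cells) and set 2 (86 cells) below, and no label says whether they are chips, runs or animals. In each set every gene has a lowest value at which its undetected cells stand, called its floor. A median of 2404 genes (range 980 to 5149) lay above the floor per cell. Detection means a value of at least 1. The number of genes at 1 or more was nearly the same in every cell of set 1 (1873 to 1946). In set 2 it had a median of 1690 (995 to 1741). Some high values also recurred exactly, such as Ly6d at 9011.15 in cells 10 and 64. Detection is thus close to a rank within the cell and is not a count of transcripts. B cell genes were found in nearly all cells, with Cd79b, a chain of the B cell receptor, detected in 180 and Ms4a1, which encodes CD20, in 176. Bcl6, the repressor that defines the germinal centre programme, was detected in 106. Markers of other cells were found in fewer cells. Those of plasma cells ran from Prdm1 in 2 to Xbp1 in 46 cells, with Irf4 in 24, those of myeloid cells from Csf1r in 3 to Lyz2 in 15, and those of T cells from Cd3d in 0 to Il7r in 12, while Nkg7 of NK cells was found in 1. Genes of B cell precursors were also rare. Vpreb1 was detected in 9 cells, Igll1 in 11 and Rag1 in 8.

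The 5 genes were each detected in 46.7 to 62.1% of cells. Each had cells with a signal of 100 or more, from 25 cells for Map3k1 to 77 for Crip1. Ly6d (chromosome 15, 74762056 to 74763620, minus strand, GRCm38) was detected in 111 of 182 cells (61.0%, 95% Clopper-Pearson interval 53.5 to 68.1). Its signal ran from 0 through a median of 3.83 to 9011, and 33 cells stood at 100 or more, with a median of 4489 among them. Another 54 cells lay between 5 and 100. The threshold of 100 was set after the values had been seen, for all 5 genes, and it is a cut through a range of values, not a gap common to the 5 genes. The 18 cells with the highest Ly6d held 84.2% of its summed signal. Intervals cover counting error over cells only.

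Vpreb3 (chromosome 10, 75943057 to 75949657, plus strand) was detected in 110 cells (60.4%, 52.9 to 67.6). Its signal had a median of 7.87 and a maximum of 24783, and 46 cells reached 100. A processed pseudogene, Gm16221, overlaps Vpreb3 on the other strand in the annotation, and whether the authors' counting used strand is not given in the sources used here. Crip1 (chromosome 12, 113146316 to 113153879, plus strand) was detected in 113 cells (62.1%, 54.6 to 69.2), with a median signal of 40.1 and a maximum of 9884. Crip1 had the most cells at 100 or more, 77. Its end of chromosome 12 also holds the heavy chain genes, the nearest constant gene being Igha at 101 kb.

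Map3k1 (chromosome 13, 111746428 to 111808993, minus strand) was detected in 85 cells (46.7%, 39.3 to 54.2). Its median signal was 0.897 and its maximum 1143, and 25 cells reached 100. Sdc4 (chromosome 2, 164424247 to 164443887, minus strand) was detected in 98 cells (53.8%, 46.3 to 61.2), with a median of 1.44 and a maximum of 3466, and 27 cells reached 100. The 18 cells with the highest values held 79.7% of the summed signal of Vpreb3, 61.1% of that of Crip1, 80.9% of that of Map3k1 and 89.8% of that of Sdc4. Crip1 was therefore the least concentrated of the 5. Whether the signal is scaled by gene length is not given, so its level is not compared between genes.

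Cells at 100 or more were present in both sets of columns. In set 1 the cells at 100 or more numbered 19 for Ly6d, 25 for Vpreb3, 48 for Crip1, 13 for Map3k1 and 14 for Sdc4. In set 2 they numbered 14, 21, 29, 12 and 13 in the same order of genes. Ly6d was detected in 69 of 96 cells of set 1 and 42 of 86 cells of set 2.

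**Figure D1:**
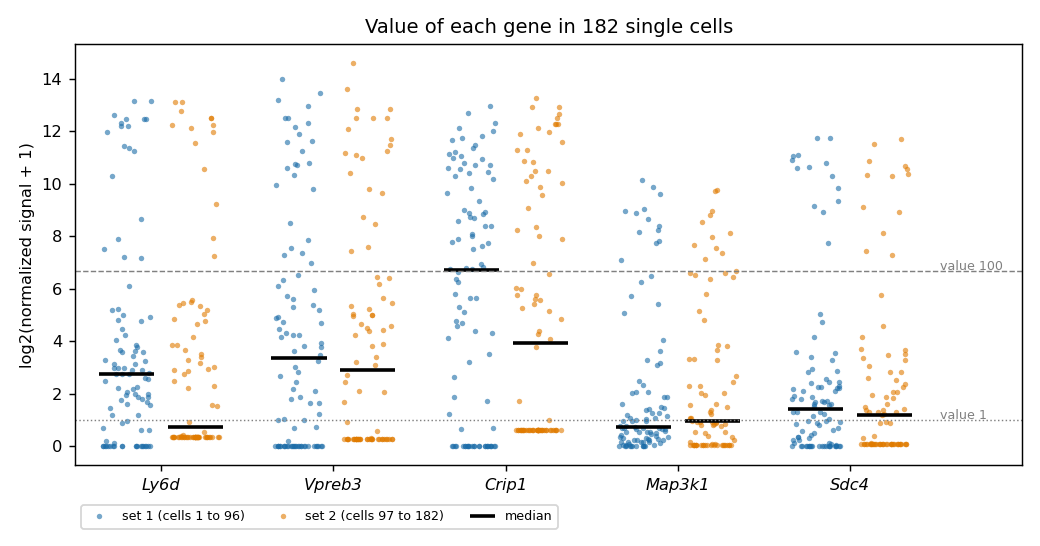
Normalized signal of the 5 genes, as log2(signal + 1), in each of 182 cells, with 1 point for each cell, set 1 and set 2 side by side and a bar at each median. In both sets every gene shows a band at or near its floor and a spread of values on both sides of 100 (dashed line), with 33 cells at or above it for Ly6d and 77 for Crip1.

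The promoters of Vpreb3 and Sdc4 are shown because each holds, near its start, a motif of B lineage transcription factors that few promoters hold. The RefSeq table of promoters (GRCm38.p6) matched 4 of the 5 genes, all but Ly6d. The 250 bases before the RefSeq start were searched on both strands for the octamer ATGCAAAT, the EBF1 motif, TCCC and GGGA with 2 bases between them, the E-box CANNTG, the GC-box GGGCGG, the NF-kB pattern, GGG and CC with 5 bases between them, and the ETS core GGAA. The octamer occurred in 1.60% and the EBF1 motif in 0.780% of 32817 promoters, while the E-box occurred in 66.2%, the GC-box in 32.7%, the NF-kB pattern in 45.8% and the ETS core in 93.4%. Capitals mark the octamer of Vpreb3, read on the other strand, and the EBF1 motif of Sdc4, in sequences written 5′ to 3′ on the gene's own strand. The Vpreb3 sequence is chr10:75948050-75948299 (plus strand) and the Sdc4 sequence chr2:164443189-164443438 (minus strand).
Vpreb3: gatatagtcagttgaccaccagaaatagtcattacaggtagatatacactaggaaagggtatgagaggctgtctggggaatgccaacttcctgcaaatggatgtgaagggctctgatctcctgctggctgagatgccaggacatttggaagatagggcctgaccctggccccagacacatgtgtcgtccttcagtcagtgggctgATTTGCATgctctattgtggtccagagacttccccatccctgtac
Sdc4: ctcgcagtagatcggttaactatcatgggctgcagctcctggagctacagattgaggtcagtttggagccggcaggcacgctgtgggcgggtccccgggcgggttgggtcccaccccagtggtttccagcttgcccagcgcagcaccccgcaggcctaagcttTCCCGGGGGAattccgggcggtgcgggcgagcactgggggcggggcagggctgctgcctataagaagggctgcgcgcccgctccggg
The octamer lay 45 to 38 bases before the Vpreb3 start and the EBF1 motif 87 to 78 bases before the Sdc4 start. Both windows lie within longer transcripts of the same genes in the GENCODE annotation. A match of letters is a description and shows no binding. The Crip1 and Map3k1 windows held neither motif, which says only that these letters are not in 250 bases, and the GC content was 50.4% for Vpreb3, 67.2% for Crip1, 85.2% for Map3k1 and 68.0% for Sdc4, beside a median of 52.4% over all promoters.

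Ly6d, Map3k1 and Sdc4 were high in the same cells. Spearman's rho over 182 cells was 0.52 for Ly6d with Sdc4 (0.47 in set 1 and 0.58 in set 2). It was 0.50 for Map3k1 with Sdc4 (0.48 and 0.51) and 0.47 for Ly6d with Map3k1 (0.45 and 0.51). Pearson's r of log2(signal + 1) was 0.65, 0.67 and 0.62 for these pairs in the same order. A relation is counted here when rho is 0.2 or beyond over all cells with the same sign in both sets. With Ly6d, 3 of the other 4 genes were counted (Sdc4, Map3k1 and Vpreb3), where 2.88% of the 5408 genes found in no fewer than 10% of cells were. With Sdc4, 3 of 4 were counted (background 2.46%), with Map3k1 3 of 4 (2.83%), with Vpreb3 4 of 4 (4.66%) and with Crip1 1 of 4 (2.94%). Since the genes were named together with earlier results in view, nothing is read from these counts. Sdc4 ranked 1 of 5408 genes by rho with Ly6d and Map3k1 ranked 2, and Ly6d ranked 1 with Sdc4. All of these values come from cells that share 1 source and 1 normalization.

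Vpreb3 had lower values with the same genes. Its rho was 0.32 with Map3k1 (0.25 in set 1 and 0.41 in set 2), 0.31 with Ly6d (0.18 and 0.54) and 0.28 with Sdc4 (0.17 and 0.49). The value with Ly6d was lower in set 1 than in set 2, and that difference was not tested. Crip1 reached 0.26 with Vpreb3 (0.29 and 0.26), but this was 0.02 when only cells with both genes detected were used and to 0.06 in cells with both under 100. Its rho was 0.16 with Ly6d, 0.14 with Map3k1 and 0.09 with Sdc4. Crip1, the gene with the most cells at 100 or more, was thus the one least related to the others.

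**Figure D2:**
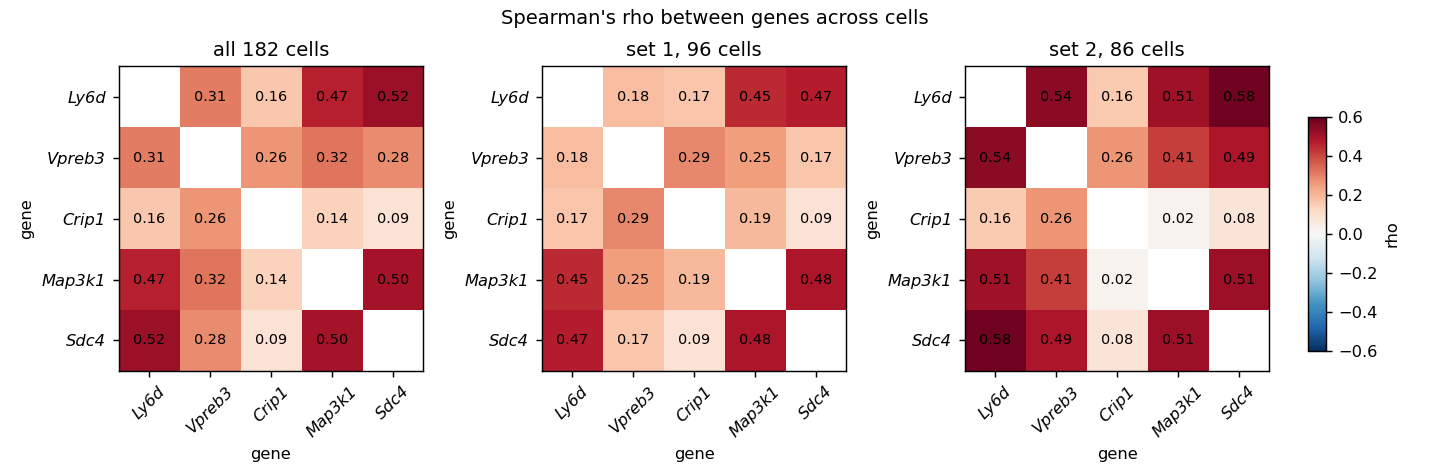
Spearman's rho of log2(signal + 1) between the 5 genes across cells, for all 182 cells and for each set, with colour from -0.6 to 0.6. The block of Ly6d, Map3k1 and Sdc4 lies between 0.45 and 0.58 in both sets, and the values of Crip1 with these 3 genes lie between 0.02 and 0.19.

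The overlap was plainest at the top of the range. Of the 33 cells with Ly6d at 100 or more and the 27 cells with Sdc4 at 100 or more, 20 were the same, where independent genes of those frequencies would share 4.90. Ly6d and Map3k1 shared 19 (4.53 if independent) and Map3k1 and Sdc4 shared 18 (3.71). Sdc4 and Vpreb3 shared 20 (6.82), as did Ly6d and Vpreb3 (8.34). In 18 cells all of Ly6d, Map3k1 and Sdc4 stood at 100 or more, against 0.67 if the 3 genes were independent, and only 3 cells had exactly 2 of them. The 18 cells were 11 of set 1 (0.38 if independent) and 7 of set 2 (0.30). These 3 genes have the highest rhos among the 10 pairs in these same cells. An excess over independence follows from that choice, so nothing further is read from it. A further 25 cells had 1 of the 3 at 100 or more and 136 had none. All 5 genes reached 100 in 10 cells (0.07 if independent).

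In the 18 cells Ly6d ran from 599 to 9011, Map3k1 from 101 to 1143 and Sdc4 from 175 to 3466. Vpreb3 ran from 0 to 16347 and reached 100 in 13 of them (4.55 if independent), and Crip1 ran from 0 to 6545 and reached 100 in 11 (7.62). Some of the 18 cells therefore had Vpreb3 or Crip1 at its floor. A positive rho remained without these cells. In cells with both genes under 100, rho was 0.45 for Ly6d with Sdc4 and 0.37 for Ly6d with Map3k1. It was 0.31 for Ly6d with Vpreb3 and 0.28 for Map3k1 with Sdc4, which had 0.50 over all cells. No term for set or for the number of genes above the floor was used in this subset, and their part in it was not tested.

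**Figure D3:**
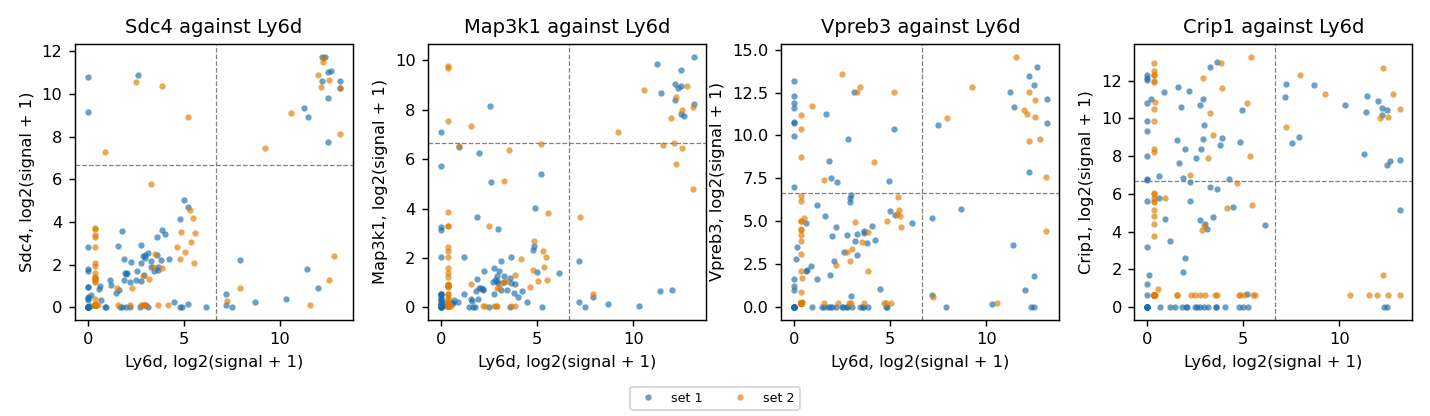
Sdc4, Map3k1, Vpreb3 and Crip1 against Ly6d in 182 cells, both axes as log2(signal + 1), coloured by set, with dashed lines at a signal of 100. The upper right corner holds 20 cells for Sdc4, 19 for Map3k1, 20 for Vpreb3 and 24 for Crip1, and the Crip1 points also fill the upper left.

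The signal of Rn45s, the ribosomal RNA precursor, was low in the cells high for these genes. In the 18 cells Rn45s ran from 1290 to 6139, with a median of 2596, while over all 182 cells it ran from 528 to 49289 with a median of 18758. Another 28 cells had Rn45s at or under 6139 without being among the 18. Across all cells rho with Rn45s was -0.25 for Ly6d, -0.27 for Vpreb3, -0.31 for Crip1, -0.39 for Map3k1 and -0.17 for Sdc4. With Rn45s and set as terms, the rank correlation was 0.50 for Ly6d with Sdc4, 0.48 for Map3k1 with Sdc4, 0.42 for Ly6d with Map3k1 and 0.26 for Ly6d with Vpreb3. The number of genes above the floor related differently in the sets, with rho of -0.32 in set 1 and 0.29 in set 2 for Ly6d, and of -0.45 and 0.18 for Sdc4. Doublets were not called here and their part in these values was not tested.

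Ly6d, Map3k1 and Sdc4 had no high cell among those with a switched heavy chain. A heavy chain constant gene was called dominant when it held over 50% of the summed signal of the constant genes, with a sum of at least 10, which gave 41 cells with a switched gene (14 IgG1, 13 IgG2b, 9 IgG2c and 5 IgG3) and 123 cells with Ighm. Ly6d ran from 0 through a median of 1.30 to 39.2 in the switched cells, and from 0 through 6.80 to 9011 in the IgM cells. It stood at 100 or more in 0 of 41 switched cells, so that a share up to 8.60% remains possible, and in 32 of 123 IgM cells (26.0%, 18.5 to 34.7). The classes thus overlapped below 40 only, in set 1 (0 of 24 switched cells at 100 or more) and in set 2 (0 of 17).

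Sdc4 reached 22.7 at most in switched cells and 3466 in IgM cells, with 0 of 41 switched cells and 26 of 123 IgM cells (21.1%) at 100 or more. Map3k1 reached 75.7 in switched cells and 1143 in IgM cells, with 0 of 41 and 22 of 123 (17.9%) at 100 or more. Map3k1 also differed in detection, at 24.4% of switched cells (12.4 to 40.3) and 55.3% of IgM cells (46.1 to 64.3). If isotype and level were independent, the 41 switched cells would hold 8 cells at 100 or more for Ly6d, 6.50 for Sdc4 and 5.50 for Map3k1.

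Vpreb3 kept some high cells in the switched class. It stood at 100 or more in 5 of 41 switched cells (12.2%, 4.08 to 26.2) and in 38 of 123 IgM cells (30.9%, 22.9 to 39.9), and it was detected in 61.0% of both. Crip1 stood at 100 or more in 21 of 41 switched cells (51.2%, 35.1 to 67.1) and in 51 of 123 IgM cells (41.5%, 32.7 to 50.7). Crip1 was thus high in both classes, with intervals that overlap.

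On the log2(signal + 1) scale, switched cells minus IgM cells gave -2.66 for Ly6d, from 1.73 ± 1.62 in switched and 4.39 ± 4.47 in IgM cells (SD over 41 and 123 cells). The difference was -1.99 for Sdc4, -1.95 for Map3k1 (-1.13 with a pseudocount of 10), -1.67 for Vpreb3 and -0.02 for Crip1. Counting differences of 1 or more with the same sign in both sets, 4 of 5 genes lay at -1 or below, where 1.24% of 5403 genes did, and none at 1 or above (1.92%). The genes were chosen for variance on this same scale. Genes of high variance pass a fixed cut more easily, so nothing is read from this count. The within-set differences were -2.55 and -2.88 for Ly6d, -2.06 and -1.91 for Sdc4, -1.38 and -2.66 for Map3k1 and -1.57 and -1.85 for Vpreb3, giving set 1 first. Those of Crip1 were -0.98 in set 1 and 1.17 in set 2, of opposite sign. The SDs are large because high cells and cells at the floor are pooled, and a pseudocount of 1 understates differences of low values.

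**Figure D4:**
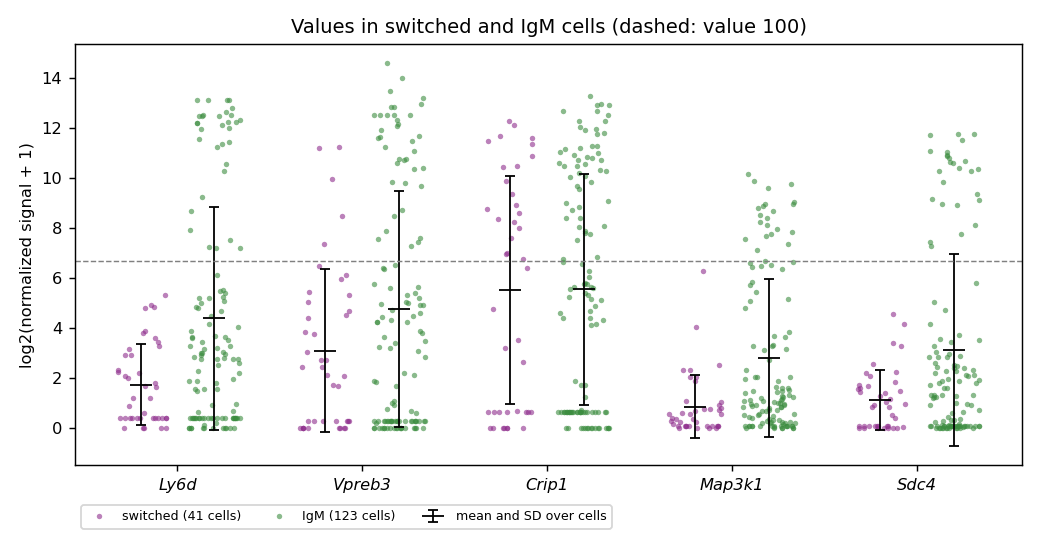
log2(signal + 1) of the 5 genes in 41 switched cells (left of each pair) and 123 IgM cells (right), with 1 point for each cell and the mean and SD over cells. No switched cell lies above a signal of 100 (dashed line) for Ly6d, Map3k1 or Sdc4, while 5 do for Vpreb3 and 21 for Crip1.

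The levels of the constant genes gave part of this pattern. Spearman's rho with Ighm was 0.29 for Ly6d, 0.28 for Map3k1 and 0.25 for Sdc4, against 0.07 for Vpreb3 and 0.02 for Crip1. Ighd, whose protein was used to deplete cells before the sort, was still detected as RNA in 42 cells, and its rho was 0.22 with Ly6d, 0.25 with Map3k1 and 0.08 with Sdc4. Of the switched genes, Ighg2b (-0.22) and Ighg2c (-0.21) were counted with Sdc4, where 2.42% of all genes were, and none with the other 4 genes. Ighg1 gave 0.10 with Ly6d, with 0.22 in set 1 and -0.12 in set 2. Ighd was detected in 11 of the 18 cells high for Ly6d, Map3k1 and Sdc4, against 4.15 if independent. Ighm was dominant in all 18 of these cells (12.2 if independent).

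Ly6d, Map3k1 and Sdc4 were lower in cells with a higher division score. The score for the G2/M phase was the mean z-score of 53 genes and that for the S phase of 38 genes. Spearman's rho with the G2/M score was -0.33 for Ly6d (-0.45 in set 1 and -0.10 in set 2), -0.31 for Map3k1 (-0.42 and -0.16) and -0.24 for Sdc4 (-0.29 and -0.16). These 3 of 5 genes were counted at -0.2 or below, where 1.66% of 5356 genes were, and none at 0.2 or above (background 4.35%), and each relation was nearer to 0 in set 2. For Vpreb3 and Crip1 rho was -0.04 and -0.06. With the S score Map3k1 gave -0.30 (-0.30 and -0.31) and Ly6d -0.24 (-0.35 and -0.17), 2 of 5 genes counted, with a background of 1.94%, and none at 0.2 or above (3.65%). The value for Ly6d became -0.19 with Rn45s and set as terms.

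Single division genes gave part of this. Mki67, the Ki-67 proliferation antigen, had rho of -0.30 with Ly6d (-0.32 and -0.30) and -0.24 with Map3k1 (-0.33 and -0.16), 2 of 5 genes counted with a background of 1.94%, and none at 0.2 or above (2.77%). Top2a, the topoisomerase of dividing cells, had rho of -0.24 with Ly6d (-0.41 and -0.04), 1 of 5 genes counted with a background of 1.29%, and none at 0.2 or above (3.33%). Of the 33 cells high for Ly6d, 22 had Mki67 detected, at a value of at least 1 (27.6 if independent), and 21 had Top2a (27.7). Detection does not mean a high level. Where detected in these cells, Mki67 ran from 1.02 (cell 148) to 260 (cell 70) and Top2a from 1.06 (cell 28) to 894 (cell 70). Many of the Mki67 values lay near the low end, such as 1.26 in cell 58, 1.30 in cell 64 and 1.57 in cell 97. A few were far higher, such as 165 in cell 121 and 121 in cell 30. Of the 53 G2/M genes, 10 were counted at -0.2 or below with Ly6d and 9 with Map3k1, 2 with Sdc4 and 1 each with Vpreb3 and Crip1. At 0.2 or above, 2 were counted with Crip1, 1 with Vpreb3 and none with Ly6d, Map3k1 or Sdc4. The backgrounds on that side were 2.94% for Crip1, 4.66% for Vpreb3, 2.88% for Ly6d, 2.83% for Map3k1 and 2.46% for Sdc4. The counts with Crip1 and Vpreb3 lay near these shares, so nothing is read from them. The backgrounds at -0.2 or below were 2.14% for Ly6d, 2.98% for Map3k1, 2.42% for Sdc4, 1.09% for Vpreb3 and 0.703% for Crip1. The leading genes were Mki67, Tpx2, a spindle assembly factor, at -0.29, and the chromatin protein Hmgb2 at -0.28 with Ly6d, and the condensin gene Smc4 at -0.33 and the mitotic kinase Plk1 at -0.32 with Map3k1. The genes at 0.2 or above were Ccnb1, which encodes cyclin B1 (0.26), and Cks1b, a partner of cyclin-dependent kinases (0.21), with Crip1, and Ckap2 (0.21) with Vpreb3.

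**Figure D5:**
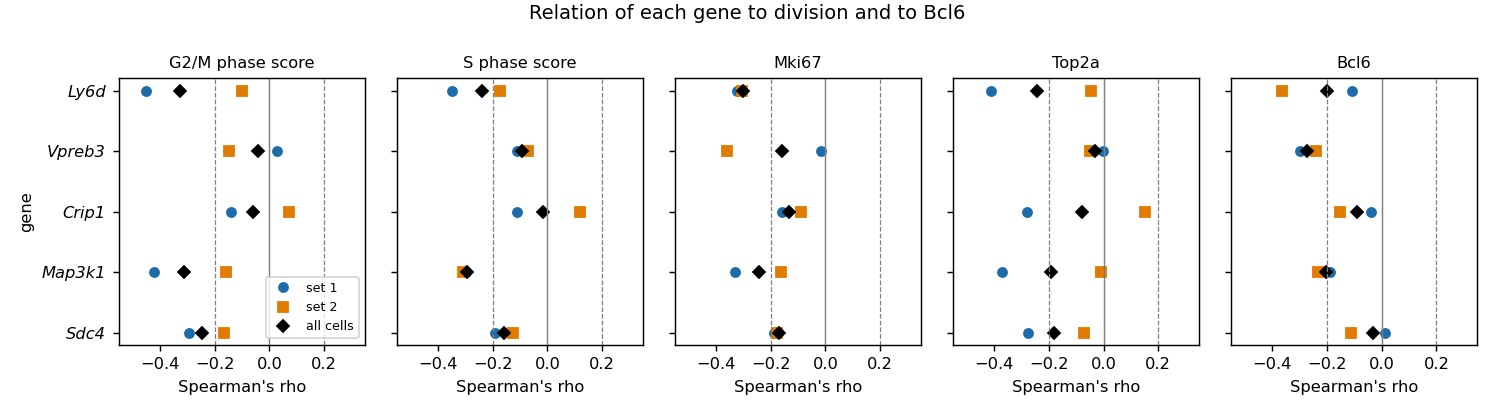
Spearman's rho of each of the 5 genes with the G2/M score, the S score, Mki67, Top2a and Bcl6, for all 182 cells (diamonds), set 1 (circles) and set 2 (squares), with dashed lines at -0.2 and 0.2. Over all cells Ly6d and Map3k1 lie left of -0.2 for both scores and Mki67, and for Bcl6 the lowest value over all cells is that of Vpreb3 (-0.27).

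Bcl6 was found in fewer of the cells high for Ly6d, Vpreb3, Map3k1 or Sdc4 than independent genes would share. Vpreb3 had the lowest rho with Bcl6, at -0.27 (-0.30 in set 1 and -0.24 in set 2), and Map3k1 followed at -0.20 (-0.19 and -0.23). These 2 of 5 genes were counted, where 2.2% of 5408 genes were at -0.2 or below, and none at 0.2 or above (background 0.962%). With Rn45s and set as terms, the Map3k1 value became -0.08. Ly6d gave -0.20 (-0.11 and -0.36), just short of the rule, and -0.12 with Rn45s and set as terms, and Crip1 -0.09 and Sdc4 -0.03. At the top of the range, Bcl6 was detected in 9 of the 33 cells with Ly6d at 100 or more (19.2 if independent), 15 of 46 for Vpreb3 (26.8), 7 of 25 for Map3k1 (14.6), 5 of 27 for Sdc4 (15.7) and 41 of 77 for Crip1 (44.8). For Sdc4 the joint count was low although its rho over all cells was near 0. Of the 18 cells high for Ly6d, Map3k1 and Sdc4, 3 had Bcl6 (10.5 if independent).

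Some other genes of the germinal centre programme were also at -0.2 or below. Of 20 such genes, 6 were counted at -0.2 or below and 2 at 0.2 or above with Ly6d, 6 and 1 with Map3k1, 7 and 1 with Sdc4, 3 and 0 with Vpreb3 and none with Crip1. Over all genes the shares at -0.2 or below were 2.14% for Ly6d, 2.98% for Map3k1, 2.42% for Sdc4 and 1.09% for Vpreb3. At 0.2 or above they were 2.88% for Ly6d, 2.83% for Map3k1 and 2.46% for Sdc4. The median rho of the list was -0.12 with Ly6d, -0.08 with Map3k1 and -0.06 with Sdc4, against -0.02, -0.02 and -0.03 over all genes. Mef2b, a transcription factor upstream of Bcl6, had rho of -0.28 with Ly6d, -0.34 with Map3k1 and -0.26 with Sdc4. Gcsam, a germinal centre signalling adaptor, had -0.29 with Ly6d and -0.30 with Sdc4. Ebf1, a transcription factor of the B lineage that is also on the list, had the opposite sign, at 0.25 with Ly6d, 0.39 with Map3k1 and 0.39 with Sdc4. Ebf1 was detected in 17 of the 18 cells high for those 3 genes (13.7 if independent).

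The dark zone is the site of division and mutation in the germinal centre and the light zone that of selection. Of 14 dark zone genes, 4 were at -0.2 or below with each of Ly6d, Map3k1 and Sdc4, where 2.14, 2.98 and 2.42% of all genes were. Among them was Mybl1, a transcription factor (-0.22, -0.24 and -0.25). With Vpreb3 there were 2, where 1.09% of all genes were. Foxp1, which is on the dark zone list and is also high in resting follicular B cells, had the opposite sign. It was counted at 0.2 or above with Ly6d (0.34), Map3k1 (0.27) and Sdc4 (0.30), where 2.88, 2.83 and 2.46% of all genes were. Of 16 light zone genes, Cd40, the receptor for T cell help (0.23 and 0.22), and the adhesion gene Icam1 (0.21 and 0.27) were counted with Ly6d and with Sdc4, where 2.88% and 2.46% of all genes were.

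Some genes of the B cell receptor and the B cell surface were higher in cells with higher Ly6d. The median rho of this list with Ly6d was 0.09, against -0.02 over all genes. Of 19 such genes, 5 were counted at 0.2 or above with Ly6d, among them the receptor chains Cd79a and Cd79b (both 0.33), Ms4a1 (0.29) and the inhibitory coreceptor Cd72 (0.29). Map3k1 had 3, Crip1 3, Sdc4 2 and Vpreb3 1. Over all genes the shares at 0.2 or above were 2.88% for Ly6d, 2.83% for Map3k1, 2.94% for Crip1, 2.46% for Sdc4 and 4.66% for Vpreb3. Of 8 measurable genes of the immature B lineage, 3 were counted at 0.2 or above with each of Ly6d, Vpreb3, Map3k1 and Sdc4 and none with Crip1. Cd93, a receptor of immature B cells, gave 0.38 with Vpreb3 (0.24 in set 1 and 0.61 in set 2), and Cd24a, a surface protein of immature B cells, gave 0.27 with Vpreb3 and 0.21 with Ly6d. The receptors and enzymes that define precursors were too rare to be ranked, and at least 1 of Vpreb1, Igll1, Rag1, Rag2 and Dntt was detected in 6 of the 33 cells with Ly6d at 100 or more and 24 of the other 149. The counts were 10 of 46 and 20 of 136 for Vpreb3, 13 of 77 and 17 of 105 for Crip1, 3 of 25 and 27 of 157 for Map3k1 and 8 of 27 and 22 of 155 for Sdc4. The summed signal of these precursor genes had a median of 0.0795 in the high and in the other cells for each of Vpreb3, Sdc4 and Ly6d. Its highest value in a single cell was 17371 among cells high for Vpreb3 or Sdc4 and 479 among the others. For Ly6d the highest value was 43.8 in the high cells and 17371 in the other cells. Of the 3 measured T cell markers, at least 1 was detected in 9 of the 46 cells with Vpreb3 at 100 or more and in 5 of the other 136, and in 7 of the 27 cells high for Sdc4 and 7 of the other 155. The median of their summed signal was 0.0286 in the high and in the other cells for Vpreb3 and for Sdc4. Their summed signal ran from 0.00442 to 968 in the cells high for Vpreb3 and from 0.00442 to 45.1 in the other cells. In the cells high for Sdc4 it ran from 0.00442 to 968 and in the other cells from 0.00442 to 266. Most of this was Il7r, the interleukin-7 receptor that B cell precursors also carry, detected in 12 cells, while Cd3d did not exceed 0.00292 in any cell. At least 1 of 4 myeloid markers was detected in 9 of the 25 cells high for Map3k1 and 19 of the other 157, in 8 of the 27 high for Sdc4 and 20 of the other 155, and in 7 of the 33 high for Ly6d and 21 of the other 149. Their summed signal ran from 0.0885 to 937 in the cells high for Map3k1 and from 0.0885 to 1160.3 in the other cells, with a median of 0.151 in both. In the cells high for Sdc4 it ran from 0.0885 to 1160.3 and in the other cells from 0.0885 to 937. The part of these cells in the results was not tested. Of the myeloid genes, Cst3, which encodes cystatin C, was counted with Vpreb3 (0.20).

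A list of 18 genes of naive and follicular B cells was added after the values had been seen. Of its 12 measurable genes, 4 were counted at 0.2 or above with Ly6d, 3 with Map3k1, 3 with Sdc4 and 1 with Vpreb3. The shares over all genes were 2.88, 2.83, 2.46 and 4.66% in the same order. The median rho of the list was 0.07, 0.08, 0.05 and 0.06, against -0.02, -0.02, -0.03 and 0.04 over all genes. The growth inhibitor Btg1 gave 0.30, 0.36 and 0.35 with Ly6d, Map3k1 and Sdc4, and S1pr1, the receptor that guides lymphocytes out of tissue, gave 0.22 with Ly6d and 0.23 with Sdc4. The class II gene H2-Ab1 had the opposite sign, at -0.25 with Map3k1 and -0.26 with Sdc4. With Vpreb3 the gene was Klf2, a transcription factor of resting lymphocytes (0.24).

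Few genes of the pathways that the proteins belong to were counted. Shares over all genes at 0.2 or above were 2.88% for Ly6d, 4.66% for Vpreb3 and 2.94% for Crip1. They were 2.83% for Map3k1 and 2.46% for Sdc4, with 2.42% at -0.2 or below for Sdc4. Lists of 14 genes or fewer are too small to set such counts apart from these shares. Of 14 genes of the JNK and p38 cascades, Atf2, a transcription factor at its end, was the 1 gene counted with Map3k1 (0.21), and none was counted with the other 4 genes. Of 14 genes of CD40 and TRAF signalling, only Cd40 was counted, with Ly6d and Sdc4 as given above. For Sdc4, the 3 measurable genes of syndecans and heparan sulfate synthesis gave no counted relation. Of the Ly6 family, 2 members besides Ly6d could be ranked. Ly6e, another lipid-anchored surface protein, was counted with Ly6d (0.25), Vpreb3 (0.29), Map3k1 (0.33) and Sdc4 (0.23), while Ly6a, which encodes Sca-1, gave -0.21 with Sdc4.

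Crip1 is known as a gene of memory, B-1 and plasma cells, and 8 genes known beside it in those cells could be ranked. None was counted with Crip1 or with Ly6d, while 5 were counted at 0.2 or above with Vpreb3, among them S100a10, which binds annexin A2 (0.30), and S100a11 (0.30), and 3 with Map3k1. Over all genes the shares were 4.66% for Vpreb3 and 2.83% for Map3k1. Anxa2, the annexin itself, had the opposite sign with Sdc4 (-0.30) and Map3k1 (-0.23). Of 7 plasma cell genes, Irf4 was counted with Ly6d (0.21), with 0.00 in set 1 and 0.33 in set 2, and none with the other 4 genes. Over all genes 2.88% were counted at 0.2 or above with Ly6d.

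The genes most like each member were ranked by the mean of the 2 within-set rhos over 4637 genes. Extremes of so many genes lie further from 0 than a second sample would give. For Ly6d they were Sdc4 (0.53), Map3k1 (0.48), the tetraspanin Cd53 (0.47), the ERK phosphatase Dusp6 (0.44), the galectin Lgals9 (0.44) and Spin1 (0.43), and at the low end Gcsam (-0.35), Mef2b (-0.32), the histone chaperone Anp32b (-0.32) and Mki67 (-0.31). For Sdc4, after Ly6d (0.53) and Map3k1 (0.50), they were Lgals9 (0.48), 5430417L22Rik (0.45), S100a10 (0.45) and Pml (0.44), which encodes the scaffold of nuclear bodies. For Map3k1, beside Sdc4 and Ly6d, they were the interferon-inducible Ifi203 (0.49), Cyb561a3 (0.46), the lysosomal activator Gm2a (0.45) and Pml (0.43), with Rn45s lowest (-0.40).

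Vpreb3 shared Dusp6 with Ly6d and S100a10 with Sdc4 among its nearest genes. The genes most like Vpreb3 were Cdkn1b, the cell cycle inhibitor p27 (0.43), Cd93 (0.42), S100a10 (0.42), Dusp6 (0.42), Chchd10 (0.40) and the ribosomal protein gene Rps7 (0.39). Those most like Crip1 were Atp5e, a subunit of ATP synthase (0.40), Snrpd2, a spliceosome protein (0.36), Hint1 (0.35), the histone gene H3f3b (0.34), Drap1 (0.34) and Ppp1ca, a phosphatase subunit (0.33). At its low end stood Lars2, the mitochondrial leucine tRNA synthetase (-0.33), Rpsa (-0.31), Son (-0.30) and Rn45s (-0.30). None of the 6 genes most like Crip1 was among the 6 most like any of the other 4. Crip1 was also the one gene counted with the number of genes above the floor (0.28, with 0.27 in set 1 and 0.38 in set 2), where 14.2% of 5409 genes were, and none was counted at -0.2 or below (3.51%).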

How the data were processed

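RNA sequencing libraries of 182 single cells were analysed. The deposited table holds 1 normalized signal per gene and cell, not on a log scale, in 17035 rows (17034 symbols, 1 duplicate row left out). Per the submitters' processing notes the mm10 build was used, with Cufflinks 2.2, Cuffdiff and TopHat2 2.0, whose roles are not stated. The normalization, filter, annotation and depth are not stated there, so the values were not treated as counts.

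Values were taken as log2(value + 1). Pearson's r and Spearman's rho across cells were computed for genes detected (value at least 1) in at least 10% of cells (5409 genes), over all cells and within each set. No p-value was computed. Scores were mean z-scores of list genes. Shares carry exact 95% Clopper-Pearson intervals, and the limit for a share of 0 is the upper end of that interval. Joint counts are set beside the product of the single shares. The calculations were tested on simulated data. Python 3.11.15, pandas 2.3.3, scipy 1.17.1 and matplotlib 3.10.9 were used. Gene positions came from GENCODE (GRCm38) and promoters from RefSeq (GRCm38.p6).

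The members and gene lists were chosen with earlier results of these data known. The threshold of 100, and with it the group of cells high for Ly6d, Map3k1 and Sdc4, was chosen after the values were seen. So was the naive and follicular list. Named genes are the 5 members, Bcl6, Mki67, Top2a, the heavy chain constant genes, the 6 most and 4 least alike genes of each member, up to 4 counted genes of each list and cell markers, and some genes that this rule names are not reported here. Alternatives were ranks within sets, other pseudocounts, detection levels and filters, and terms for genes above the floor.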

Additional observations from a re-analysis of the deposited data

How the results depend on the processing

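The relations of Ly6d, Map3k1, Sdc4 and Vpreb3 with each other, those of Ly6d, Map3k1 and Sdc4 with the G2/M score and the differences of Ly6d, Vpreb3, Map3k1 and Sdc4 by isotype in mean log2(value + 1) kept their side of the size rule and their sign under each alternative run. Values near 0 changed sign. Crip1 in switched minus IgM cells (-0.02) was 0.78 with dominance at over 80% and 0.09 as the mean of within-set differences. With terms for Rn45s and set, Vpreb3 and Crip1 with the G2/M score gave 0.03 and 0.01, Crip1 with the S score 0.08 (0.005 with a score pseudocount of 0.1), and Crip1 and Sdc4 with Bcl6 0.02 and 0.03. With cells that had both genes detected, rho was 0.25 for Ly6d with Crip1 and 0.23 for Crip1 with Sdc4, now past 0.2, and 0.024 for Vpreb3 with Crip1. In cells with both under 100, an alternative added after the values were seen, Vpreb3 with Crip1 gave 0.063. With terms for Rn45s and set, also added after the values were seen, Vpreb3 with Crip1 gave 0.199, Ly6d with the S score -0.19, Map3k1 with Bcl6 -0.082 and Ly6d with Bcl6 -0.118. Ly6d with Bcl6 passed the rule with ranks within sets (-0.225) and with terms for genes above the floor and set (-0.218). The cause was not tested. At a value of 5 or more, the share of cells was 47.8% for Ly6d, 52.7% for Vpreb3, 27.5% for Map3k1 and 27.5% for Sdc4, and above the floor it was 81.3% for Map3k1 and 69.2% for Sdc4, which follows from the level required. Detection at 5 also moved the share in switched minus IgM cells to -9.76 percentage points for Vpreb3 and 2.44 for Crip1. Of the 6 genes most like a member, 3 were shared for Vpreb3 and 2 for Sdc4 when genes had to be detected in 25% of cells, which leaves fewer genes to rank. No paired analysis was possible because the cells form 1 group with no second group to pair. Leaving out replicates was not run, since the cells are 1 sample. The unknown depth limits all statements on undetected cells.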

Other observations

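Actb, cytoskeletal actin, was higher in cells with higher values of the 5 genes, with rho of 0.21 for Ly6d, 0.26 for Vpreb3, 0.32 for Crip1, 0.22 for Map3k1 and 0.17 for Sdc4. Lars2 had the opposite sign, at -0.21 with Ly6d, -0.29 with Vpreb3, -0.34 with Crip1 and -0.25 with Map3k1, and stood at -0.04 with Sdc4. Malat1, a nuclear non-coding RNA, was at -0.18 with Vpreb3 and at 0.06 with Ly6d.

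In 33 cells all 5 genes were detected, where 10.5 would be if they were independent, and in 11 cells none was (2.62 if independent). In the 4 cells without a dominant heavy chain gene Map3k1 reached 839 and stood at 100 or more in 2 cells, while Ly6d reached 47.1.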
